A study of Mus musculus with 6 samples.

Results

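The genes described here serve protein folding in the endoplasmic reticulum (ER), the unfolded protein response and COPII transport, the vesicle coat that carries cargo out of the ER. They were chosen by symbol from a fixed list of 45 genes, and all 45 were found among the 24346 gene symbols of the series. By role they comprise 15 ER chaperones and folding factors, 8 stress sensors and transcription factors, 6 genes of the Sec61 translocon and its TRAP partner, 11 genes of the COPII coat and its cargo receptors, and 5 genes of KDEL receptors and p24 proteins. All 45 passed the filter on low values, which asked for 1 FPKM or more (a fragment count scaled to transcript length and library size) averaged over 6 libraries.

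RNA-seq was run on mouse cartilage of the spheno-occipital synchondrosis, a growth cartilage of the cranial base, cut by laser microdissection. The series compared flat with round chondrocytes. The library titles carry the codes FP and RR, with 3 libraries each, numbered 11, 14 and 16 in both. No label spells out the codes. All animals of both groups carried Gli1CreERT2, a tamoxifen-activated Cre recombinase driven by Gli1, and a floxed Tomato reporter, and were injected with tamoxifen at postnatal day 3. The sources used here give no age at collection and do not tie libraries to separate animals. The p-values therefore measure only the spread between these libraries, which may be technical. The main fit did not pair libraries by number.

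Chondrocytes secrete large amounts of collagen and proteoglycan, which enter the ER through the Sec61 channel, fold with the help of chaperones and disulfide isomerases, and leave in COPII vesicles. When unfolded protein accumulates, the sensors IRE1, PERK and ATF6 raise chaperone genes and slow translation, and prolonged activation raises the transcription factor CHOP. In mouse cartilage the ER-bound factor BBF2H7, encoded by Creb3l2, is known for driving Sec23a and matrix secretion.

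The libraries held cartilage: Col2a1, the main cartilage collagen, measured 41112, 74248 and 69551 FPKM in FP, against 38697, 63124 and 81873 FPKM in RR. Of 11 prehypertrophic and hypertrophic markers 7 were higher in FP and 0 lower, of 10 flat columnar markers 4 were higher and 0 lower, and of 10 resting markers 0 were higher and 6 lower (limma, adjusted p under 0.05). The FPKM value of a single fragment on a 2000 bp transcript ran from 0.128 in FP 11 to 0.296 in RR 14, a 2.31-fold range of depth unless the libraries had been rescaled. For 36 of the 45 genes this corresponds to at least 30 fragments in every library. Sdf2l1, Sar1b and Dnajb9 were thinnest, at about 4.41, 5.15 and 6.69 fragments in their lowest library. Sec23b, Sec61b, Manf, Creld2, Sec13 and Atf6 were also under 30. They had about 16.9, 20.3, 24.3, 25.4, 25.5 and 26.1 fragments, each in RR 14. RR 14 stood apart from the other RR libraries on the first principal component (76.9 against 19.5 and 9.11, with FP at -38.5, -32.3 and -34.7), so the medians over the 45 genes and over each role group are also given without it. The second principal component was at 37.5 in FP 11 and 59.8 in RR 11, against -47.5 in FP 14 and -28.3 in RR 14. It was -25.5 in FP 16 and 4.05 in RR 16. The first component held 29.2% of the variance and the second 25.1%.

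No gene of the 45 passed the test between FP and RR. By their estimates all 45 were higher in FP, a direction shared by 51.6% of all 14789 tested genes and by 64.9% of the 6914 with a mean of at least 5 FPKM. The counts past the test were 0 higher and 0 lower (limma adjusted p under 0.05), where 0.967% of all tested genes passed. At unadjusted limma p under 0.05, 12 were higher, 26.7% of the genes, and 0 lower, where 5.77% of all tested genes were higher, 4.55% lower and 10.3% either. Of the 6914 genes at 5 FPKM or more, 653 were higher and 287 lower at that threshold, 13.6% in either direction. That count was 6 without FP 16, 7 without FP 11 and 7 without RR 14, and up to 15 with another library left out. The share of all tested genes at that threshold was not computed for these fits. The same number, 12 of 45, had 3 FP values above all 3 RR values, against 8.74% of all tested genes and 13.6% of those at 5 FPKM or more, and 0 lay wholly below, against 7.28%. The median log2 change over the 45 was 0.50, beside 0.02 over all tested genes and 0.14 over those at 5 FPKM or more. After quantile normalization 38 of the 45 were higher by their estimate with a median of 0.25, and after rescaling without small RNAs and the highest genes 43 were, with a median of 0.38 where that of all tested genes was -0.09.

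The size of this difference moved in both directions with the library left out. A fit without 1 library kept the library of the same number in the other group. For 30 of the 45 genes both libraries numbered 11 were the highest of their group. No fit left out both of these. Without FP 11 the median over the 45 was 0.22, with 38 genes higher, and without RR 14 it was 0.24, with 37 higher. It was 0.76 without FP 14, 0.64 without RR 11, 0.53 without FP 16 and 0.54 without RR 16. Without both libraries numbered 14 it was 0.49, with 43 higher. In tissue samples of this kind fewer cells of a type and less RNA per cell cannot be told apart. Of the 45 genes, 34 were higher in each of the 6 fits that left out 1 library.

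**Figure D1:**
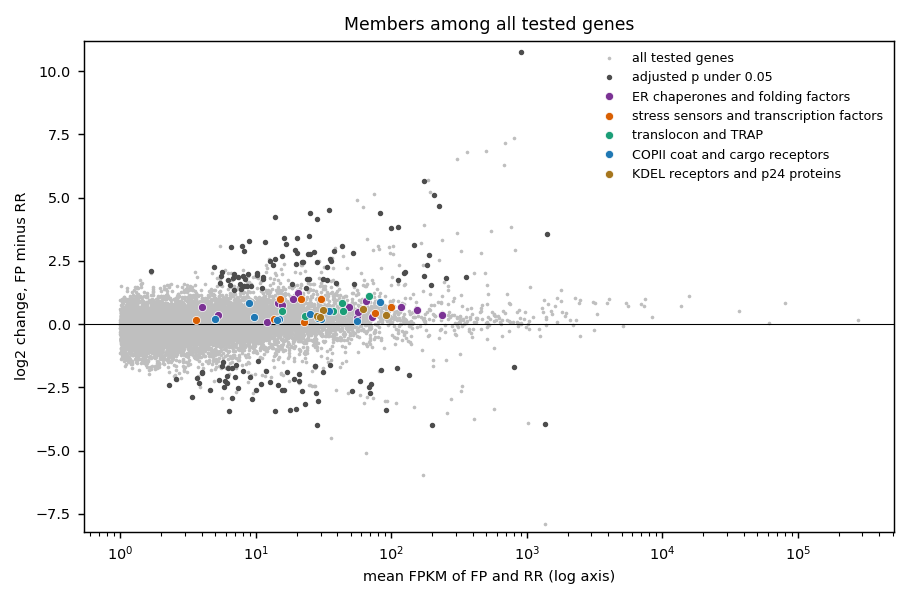
Log2 change of FP minus RR (limma, on log2 of FPKM + 1) against the mean FPKM of both groups (log axis) for all 14789 tested genes, with genes past an adjusted p of 0.05 in dark grey and the 45 ER and COPII genes in colour by role. The coloured points lie between 0.07 and 1.22, and none is among the dark points.

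Among chaperones and folding factors, Creld2 differed most. It encodes an ER-resident protein with EGF-like repeats, known as a stress-inducible gene. Creld2 measured 30.2, 28 and 28.8 FPKM in FP, against 9.65, 11 and 15.7 FPKM in RR. The FP libraries lay close together and above every RR library, of which RR 16 was highest. The log2 change was 1.22 ± 0.26 (SE; 95% interval 0.62 to 1.82; limma adjusted p = 0.0953), the smallest adjusted p of the 45 genes, and the mean was 2.39-fold as high in FP. It missed the threshold in all 14 alternative fits, with adjusted p from 0.0524 to 0.576. Creld2 lies on mm10 chromosome 15, 88819646 to 88826683, plus strand.

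Hyou1, an HSP70-type chaperone that exchanges nucleotide on BiP, measured 18.8, 18.9 and 21.5 FPKM in FP, against 9.37, 12.1 and 12.8 FPKM in RR. The groups were well separated, with a log2 change of 0.75 ± 0.25 (limma adjusted p = 0.305). Herpud1, a membrane protein of ER-associated degradation, measured 63, 49.4 and 66.7 FPKM in FP, against 37.6, 30.7 and 43.8 FPKM in RR (log2 change 0.66 ± 0.27, limma adjusted p = 0.435). Here the gap between FP 14 and RR 16 was narrow. Dnajb11, a DNAJ cochaperone of BiP, measured 32.9, 19.9 and 22.7 FPKM in FP, against 17.6, 7.73 and 12.1 FPKM in RR (log2 change 0.99 ± 0.34, limma adjusted p = 0.334). Its lowest FP library lay just above RR 11. Pdia6, a disulfide isomerase and the fifth member with separate groups, chosen for mention after its values were seen, measured 124, 54.1 and 81.5 FPKM in FP, against 54, 31.1 and 48.1 FPKM in RR. FP 14 and RR 11 were nearly equal, and the log2 change was 0.91 ± 0.37 (limma adjusted p = 0.444).

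The most abundant chaperones varied widely within each group. Hspa5, the BiP chaperone that also holds the stress sensors inactive, measured 239, 78.5 and 125 FPKM in FP, against 117, 57.2 and 86 FPKM in RR. FP 11 stood far above the others, while FP 14 lay below RR 11 and RR 16. The log2 change was 0.67 ± 0.44 (95% interval -0.34 to 1.68; limma adjusted p = 0.705), 0.25 without FP 11 and 0.40 without RR 14. Hsp90b1, the HSP90 of the ER, measured 279, 134 and 138 FPKM in FP, against 164, 83.7 and 122 FPKM in RR (log2 change 0.54 ± 0.39, 0.20 without FP 11; limma adjusted p = 0.724). Again FP 11 was highest, and RR 11 exceeded FP 14 and FP 16. Hsp90b1 shares 270 bp of exon with 1810014B01Rik on the opposite strand, and whether counting used strand is not stated in those sources. Calr, the lectin chaperone calreticulin, had the highest level of the 45 genes, a mean of 234 FPKM over the 6 libraries. It averaged 265 ± 109 FPKM in FP and 204 ± 68.6 FPKM in RR (SD, n = 3 each; log2 change 0.36 ± 0.40, 0.04 without RR 14). Of the other chaperones, Pdia3, Pdia4, Canx, Manf, Sdf2l1, Dnajb9 and Dnajc3, log2 changes ran from 0.07 for Dnajc3 to 0.84 for Manf, and the groups of each overlapped. Over the 15 chaperones the median log2 change was 0.66, but 0.25 without FP 11, where 12 of 15 were higher by their estimate, 0.40 without RR 14, where 13 were, and 0.40 after quantile normalization, where 11 were. That median was 0.78 without FP 14, 0.68 without RR 11 and 0.66 without both libraries numbered 14. The summed level of the 15 chaperones was 1567, 710 and 935 FPKM in FP and 887, 491 and 778 FPKM in RR.

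The promoters of several of these chaperones carry the ER stress response element, which ATF6 binds together with NF-Y. The sites are shown as background on these promoters. All 45 estimates lay in the same direction, so direction does not set the genes with a site apart. RefSeq promoters (GRCm38, the mm10 build), from 250 bases before to 50 after the gene start, were found for 36 of the 45 genes. The letters CCAAT, any 9 bases and CCACG, searched on both strands, occurred in 7 of these 36 (19.4%), all of them chaperones, and in 0.137% of the 27025 genes with a promoter. The sites follow with 20 bases on either side, 5′ to 3′ on the strand of the gene, with the CCAAT and CCACG parts, or their reverse complements ATTGG and CGTGG, in capitals.
Hspa5, chr2:34772005-34772063, plus strand: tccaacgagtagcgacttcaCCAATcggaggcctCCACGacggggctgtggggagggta
Hsp90b1, chr10:86705618-86705676, minus strand: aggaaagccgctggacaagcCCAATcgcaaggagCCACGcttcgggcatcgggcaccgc
Hsp90b1, chr10:86705513-86705571, minus strand: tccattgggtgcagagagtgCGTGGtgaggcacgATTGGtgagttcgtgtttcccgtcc
Calr, chr8:84847055-84847113, minus strand: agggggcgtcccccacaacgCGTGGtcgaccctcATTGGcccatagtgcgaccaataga
Canx, chr11:50325780-50325838, minus strand: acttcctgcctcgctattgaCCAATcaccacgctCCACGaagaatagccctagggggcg
Pdia6, chr12:17266471-17266529, plus strand: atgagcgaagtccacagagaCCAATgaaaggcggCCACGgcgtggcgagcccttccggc
Creld2, chr15:88819500-88819558, plus strand: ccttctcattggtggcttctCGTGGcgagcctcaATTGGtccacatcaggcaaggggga
Dnajc3, chr14:118937807-118937865, plus strand: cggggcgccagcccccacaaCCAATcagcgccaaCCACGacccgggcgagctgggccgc

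The 7 genes with these letters ranged from a log2 change of 0.07 for Dnajc3 to 1.22 for Creld2, with a median of 0.54. The 6 chaperones with a promoter and no match had a median of 0.51. A shorter form, ATTGG, any 1 base and CCACG on either strand, was found in 2 of the 36 promoters, those of Herpud1 and Dnajb11, and in 0.0444% of all genes. The Herpud1 site began 52 bases before the start, and the Dnajb11 site lay past the start.
Herpud1, chr8:94386357-94386407, plus strand: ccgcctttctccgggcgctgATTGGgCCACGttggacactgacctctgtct
TGACGTGG, again on both strands, the core bound by XBP1 and ATF6, were in 3 of the 36 (8.33%) and in 0.714% of all genes. These were Sec24d, Kdelr3 and Sec23a, none of them a chaperone, and the Sec23a match lay past the start. Capitals again mark the match, which in Kdelr3 is the reverse complement.
Sec24d, chr3:123267450-123267495, plus strand: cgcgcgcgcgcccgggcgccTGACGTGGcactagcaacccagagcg
Kdelr3, chr15:79516358-79516405, plus strand: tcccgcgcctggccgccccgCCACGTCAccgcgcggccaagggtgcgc
ATTGCATCA, searched likewise, an amino acid response element bound by ATF4 and its partners, were in 0 of the 36 promoters and in 0.222% of all genes.

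**Figure D2:**
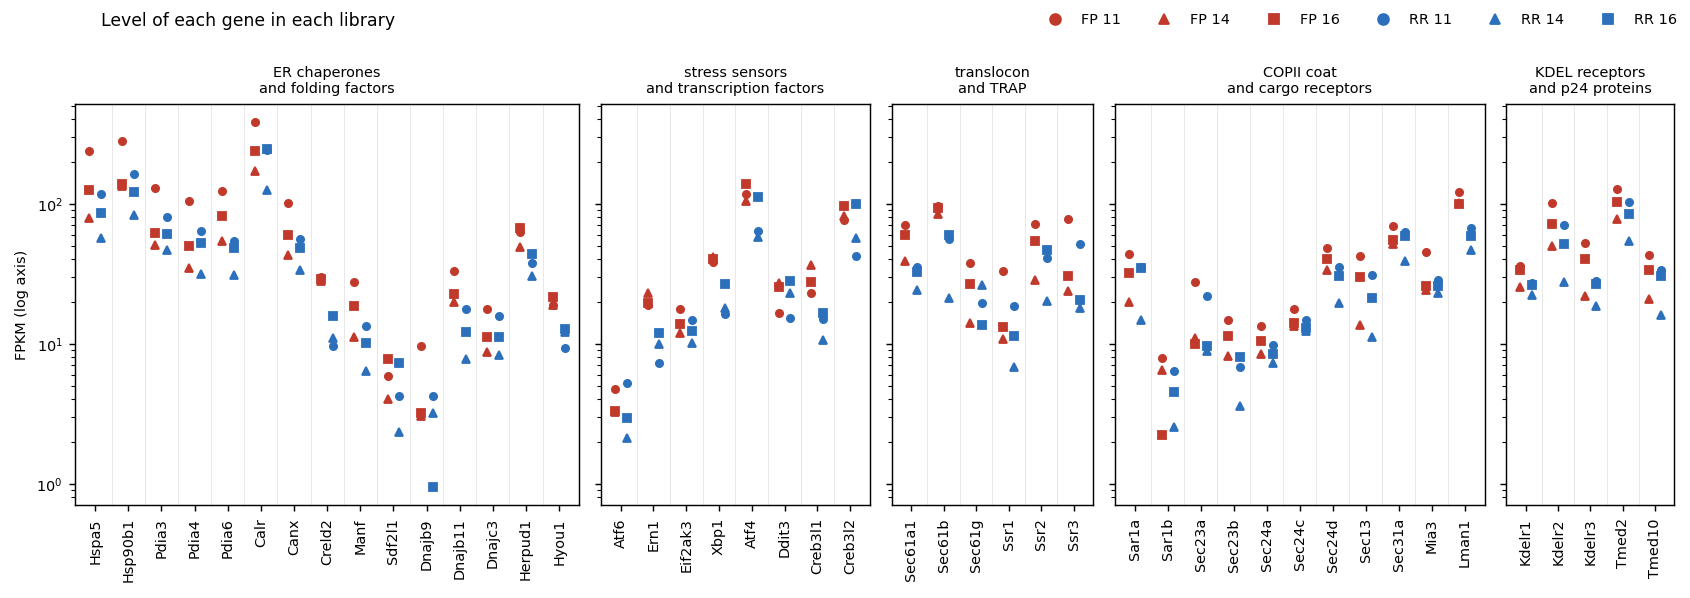
FPKM (log axis) of each gene in each library, with FP in red and RR in blue and marker shapes for library numbers 11, 14 and 16, in 5 panels by role. Creld2, Hyou1, Ern1, Xbp1, Sec61b and Lman1 show FP values above all RR values, whereas Hspa5 and Ddit3 show overlapping groups.

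Among the stress sensors, Ern1 differed most. It encodes IRE1, the ER nuclease that splices Xbp1 mRNA. Ern1 measured 18.8, 22.9 and 19.4 FPKM in FP, against 7.34, 9.9 and 12 FPKM in RR. All FP libraries lay above all RR libraries, and the log2 change was 1.01 ± 0.27 (95% interval 0.40 to 1.62; limma adjusted p = 0.187). Xbp1, the transcription factor made from the spliced mRNA, measured 38.4, 41.8 and 40.2 FPKM in FP, against 16.2, 18 and 26.8 FPKM in RR. FP was nearly constant, RR 16 was highest in RR, and the log2 change was 0.98 ± 0.27 (limma adjusted p = 0.206). A gene-level FPKM does not separate spliced from unspliced Xbp1. On mm10, Ern1 lies on chromosome 11 (106394650 to 106487852, minus strand) and so does Xbp1 (5520659 to 5525893, plus strand).

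The other sensors showed small differences. Eif2ak3, which encodes PERK, measured 17.8, 11.9 and 13.8 FPKM in FP, against 14.9, 10.2 and 12.4 FPKM in RR. The groups overlapped, with a log2 change of 0.20 ± 0.27 (95% interval -0.42 to 0.82), 0.05 without FP 11. Atf6, which encodes the membrane-bound factor of the ER, had the lowest level of this group, at 4.76, 3.28 and 3.32 FPKM in FP, against 5.22, 2.13 and 2.95 FPKM in RR (log2 change 0.16 ± 0.33, -0.06 without RR 14). The highest value was that of RR 11. The intervals of Atf6 and Eif2ak3 overlap that of Ern1, and a difference between the 3 sensors was not tested.

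Downstream of PERK, Atf4 measured 117, 105 and 138 FPKM in FP, against 64, 58.3 and 112 FPKM in RR. Its mRNA is mainly regulated at translation. RR 16 lay within the FP range, and the log2 change was 0.67 ± 0.32 (limma adjusted p = 0.540). Ddit3, the gene of CHOP, measured 16.7, 27.3 and 25.3 FPKM in FP, against 15.2, 23.2 and 27.9 FPKM in RR. The library numbered 11 was the lowest in both groups. The groups overlapped almost fully, with a log2 change of 0.07 ± 0.32 (95% interval -0.65 to 0.79; limma adjusted p = 0.974), -0.10 after quantile normalization and -0.05 after rescaling. Ddit3 shares 68 bp of exon with Mars on the opposite strand.

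Creb3l1, the gene of OASIS, an ER-bound factor known from mouse osteoblasts for raising collagen I, measured 23, 36.7 and 27.7 FPKM in FP, against 15.1, 10.6 and 16.7 FPKM in RR. The groups did not overlap, with a log2 change of 0.99 ± 0.29 (limma adjusted p = 0.239). Its paralog Creb3l2 measured 76.4, 81.4 and 95.7 FPKM in FP, against 42.5, 56.9 and 99.9 FPKM in RR. RR 16 exceeded every FP library, and the log2 change was 0.43 ± 0.34 (limma adjusted p = 0.767), 0.76 without RR 16 and 0.16 without RR 11. Per length, the level of Creb3l2 exceeded that of Creb3l1 in every library. Over the 8 sensors and factors the median log2 change was 0.55, with 0.86 without RR 16, 0.43 without RR 14 and 0.28 after quantile normalization. Their summed level was 313, 331 and 364 FPKM in FP and 180, 189 and 311 FPKM in RR.

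**Figure D3:**
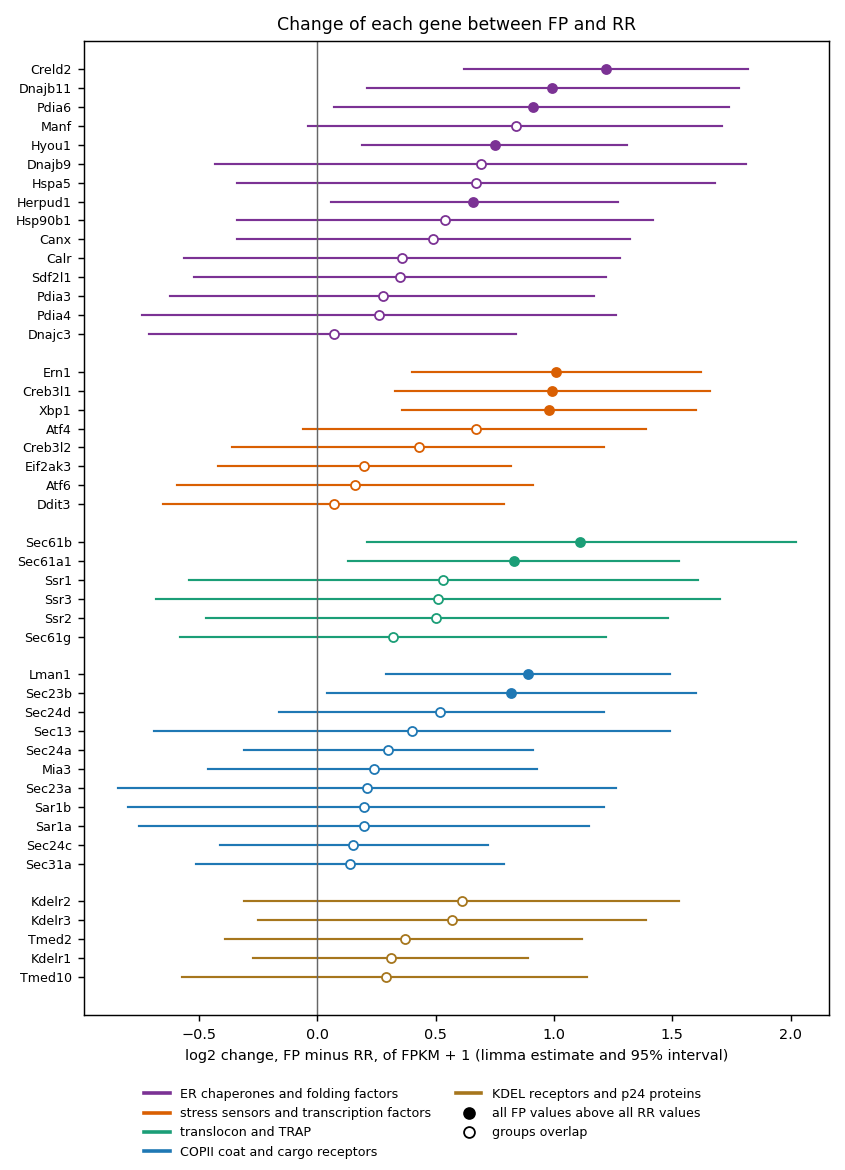
Limma log2 change of FP minus RR with its 95% interval for each of the 45 genes, grouped by role and sorted by size, with filled points where all FP values exceed all RR values. All 45 points lie above 0 and 12 are filled, from Creld2 at 1.22 down to Herpud1 at 0.66.

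In the translocon, Sec61b and Sec61a1 had separate groups. Sec61b, a small subunit of the channel, measured 96.1, 85 and 93.7 FPKM in FP, against 56, 21.3 and 60.2 FPKM in RR. RR 14 was far below the rest, and the log2 change of 1.11 ± 0.40 (limma adjusted p = 0.358) was 0.65 without it. The RR 14 value stood for about 20.3 fragments. Sec61a1, the pore-forming subunit, measured 70.1, 38.9 and 60 FPKM in FP, against 35.6, 24.3 and 32.5 FPKM in RR (log2 change 0.83 ± 0.31, limma adjusted p = 0.388). The lowest FP library lay just above the highest RR library. Sec61g, the other small subunit, measured 37.6, 14.1 and 26.7 FPKM in FP, against 19.7, 26.1 and 13.7 FPKM in RR, so that the groups overlapped. It shares 420 bp at full identity with Gm10177, so its reads could be split between copies.

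The TRAP complex assists translocation of some signal sequences. Ssr1 measured 33, 10.9 and 13.2 FPKM in FP, against 18.7, 6.8 and 11.4 FPKM in RR (log2 change 0.53 ± 0.47, 0.07 without FP 11; limma adjusted p = 0.796). Ssr2 measured 71.9, 28.5 and 54.6 FPKM in FP, against 40.7, 20.1 and 46.5 FPKM in RR (log2 change 0.50 ± 0.43, 0.15 without RR 14; limma adjusted p = 0.777). In both genes FP 11 was highest and RR 14 lowest, and FP 14 lay below RR 11 and RR 16. Ssr3 followed with 0.51 ± 0.52, and 0.0071 without FP 11. The median of the 6 translocon and TRAP genes was 0.52, but 0.15 without FP 11 and 0.39 without RR 14. It was 0.86 without FP 14, 0.90 without RR 11 and 0.64 without both libraries numbered 14.

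Among COPII genes the largest estimate was that of the cargo receptor Lman1. Lman1 encodes ERGIC-53, a lectin that carries glycoproteins out of the ER. It measured 121, 101 and 98.8 FPKM in FP, against 67.2, 46.8 and 59.1 FPKM in RR. The groups were far apart for this set, with a log2 change of 0.89 ± 0.26 (95% interval 0.29 to 1.49; limma adjusted p = 0.245), and between 0.75 and 1.01 without any 1 library. Lman1 lies on mm10 chromosome 18, 65980738 to 66022580, minus strand.

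In the inner coat, Sec23b measured 14.8, 8.17 and 11.4 FPKM in FP, against 6.79, 3.61 and 8.09 FPKM in RR (log2 change 0.82 ± 0.34, limma adjusted p = 0.461). FP 14 and RR 16 were nearly equal. Its paralog Sec23a, mutated in a human craniofacial disorder, measured 27.4, 11 and 10 FPKM in FP, against 22.1, 8.88 and 9.59 FPKM in RR. Libraries numbered 11 were the highest in both groups, and the others differed little. The log2 change of Sec23a was 0.21 ± 0.46 (95% interval -0.84 to 1.26; limma adjusted p = 0.940), and -0.22 without FP 11. Within each library number FP was above RR, and the fit without FP 11 kept RR 11. Sec24d, a cargo-binding subunit, measured 48.1, 33.8 and 40.3 FPKM in FP, against 35.2, 19.7 and 30.7 FPKM in RR (log2 change 0.52 ± 0.30, 0.29 without RR 14; limma adjusted p = 0.643). FP 14 lay within the RR range. Sec24a averaged 10.8 ± 2.48 FPKM in FP and 8.47 ± 1.23 FPKM in RR (SD, n = 3 each; log2 change 0.30 ± 0.27, 0.14 without FP 11). The remaining coat genes Sar1a, Sar1b, Sec24c, Sec13 and Sec31a, and Mia3, whose protein TANGO1 loads collagen into vesicles, lay between 0.14 for Sec31a and 0.40 for Sec13, each with overlapping groups. The 11 COPII genes had a median of 0.24, but 0.03 without FP 11 and 0.10 without RR 14, where 7 of 11 were higher by their estimate in either case. It was 0.45 without FP 14, 0.45 without RR 11 and 0.32 without both libraries numbered 14. After quantile normalization 9 of 11 were higher. Their summed level was 451, 292 and 330 FPKM in FP and 320, 189 and 274 FPKM in RR.

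KDEL receptors return escaped chaperones from the Golgi to the ER, and p24 proteins cycle between both. Kdelr2 measured 101, 50.3 and 71.4 FPKM in FP, against 70.2, 27.5 and 51.6 FPKM in RR (log2 change 0.61 ± 0.40, limma adjusted p = 0.704). Kdelr3 measured 52.7, 21.9 and 40.6 FPKM in FP, against 28.1, 18.5 and 26.5 FPKM in RR (log2 change 0.57 ± 0.36, limma adjusted p = 0.684). In both, FP 14 fell within the RR range. Kdelr1 was steadier, at 35.9, 25.6 and 33.4 FPKM in FP, against 27.3, 22.2 and 26.2 FPKM in RR (log2 change 0.31 ± 0.26). Tmed2 averaged 103 ± 25.3 FPKM in FP and 80.5 ± 24.4 FPKM in RR (SD, n = 3 each; log2 change 0.37 ± 0.33), and shares 604 bp at full identity with Gm10698. Tmed10, another p24 protein, was at 0.29 ± 0.38. The groups of all 5 genes overlapped. Without RR 14 the log2 change was 0.24 for Kdelr2, 0.11 for Tmed2 and -0.03 for Tmed10, and without FP 11 it was 0.31 for Kdelr3 and 0.21 for Kdelr1. The median of the 5 was 0.37, but 0.22 without RR 14, 0.21 without FP 11 and 0.08 after quantile normalization. It was 0.57 without FP 14, 0.57 without RR 11 and 0.36 without both libraries numbered 14.

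The genes also showed a pattern across libraries. For 30 of the 45 (66.7%) the library numbered 11 was the highest of its group in both FP and RR, against 20.7% of all tested genes and 25.3% of those at 5 FPKM or more. The count was 10 of 11 in COPII, 5 of 5 in KDEL receptors and p24 proteins, 10 of 15 in chaperones and 3 of 6 in the translocon, but 2 of 8 among sensors and factors, namely Eif2ak3 and Atf6. The library numbered 14 was the lowest in both groups for 33 of the 45 (73.3%), against 16.9% of all tested genes and 24.6% of those at 5 FPKM or more. Between libraries 11 and 14, Hspa5 differed 3.04-fold in FP and 2.04-fold in RR, and Ssr3 3.30-fold and 2.85-fold. Hyou1, Ern1, Xbp1, Ddit3 and Creb3l2 were lower in library 11 than in library 14 in both groups: in FP, library 11 was 0.992, 0.82, 0.918, 0.612 and 0.939 times as high as library 14, and in RR 0.774, 0.742, 0.899, 0.657 and 0.748 times. Creld2 had ratios of 1.08 in FP and 0.876 in RR. By the value of a single fragment, the libraries numbered 14 were the shallowest of each group and FP 11 the deepest of all. RR 11 was shallower than RR 16 by that value, and this order holds unless the libraries had been rescaled. The number of genes at 0 did not follow it, with 4526 in RR 14, 4751 in FP 11, 5495 in RR 16 and 6258 in FP 14. Summed osteoblast and osteocyte markers were 932, 735 and 272 FPKM in FP 11, 14 and 16, and 1681, 371 and 258 FPKM in RR 11, 14 and 16. They too were highest in both libraries numbered 11, but lowest in both numbered 16. Summed macrophage, fibroblast and neural markers were also highest in both libraries numbered 11. Summed cartilage, flat columnar and endothelial markers were lowest in both. The part of depth and of these markers in the pattern was not tested.

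**Figure D4:**
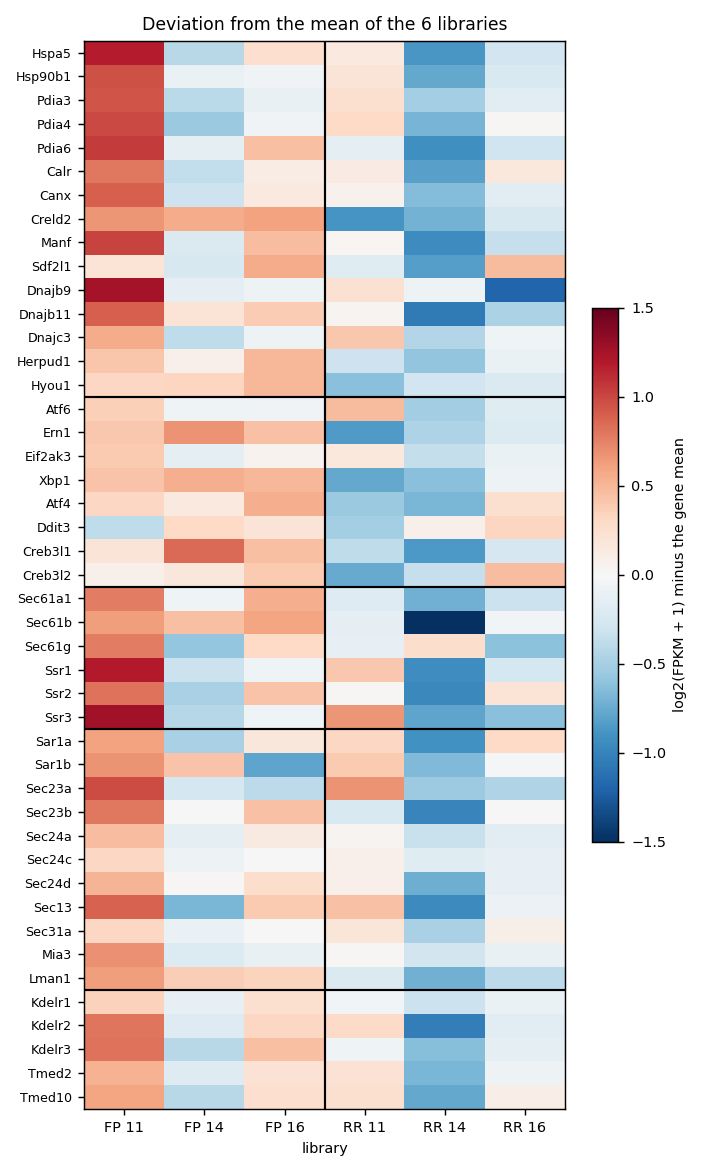
Deviation of log2(FPKM + 1) from the mean of the 6 libraries for each gene, with FP libraries left and RR libraries right and black lines between the 5 role groups. FP 11 is red and RR 14 blue in most rows, whereas Creld2, Ern1 and Xbp1 are red in all 3 FP libraries and blue in all 3 RR libraries.

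Genes of the same pathways outside the 45 also held 0 called genes in each of 8 lists. At unadjusted limma p under 0.05, 10.3% of all tested genes passed in either direction, 5.77% higher and 4.55% lower. Among those at 5 FPKM or more, 13.6% passed in either direction. Of 29 other folding enzymes tested, 5 were higher (17.2%) and 0 lower at unadjusted limma p under 0.05, with a median log2 change of 0.19. Fkbp2, a prolyl isomerase of the ER, measured 16.2, 11.8 and 28.2 FPKM in FP, against 7.38, 4.99 and 7.37 FPKM in RR (limma adjusted p = 0.187). Fkbp11, a related isomerase, measured 35, 10.3 and 17.6 FPKM in FP, against 10.5, 2 and 0 FPKM in RR. Of 24 genes of ER-associated degradation, 2 were higher (8.33%) and 0 lower at that threshold (median 0.40). These were Ube2j2, an ER-bound ubiquitin-conjugating enzyme, at 0.96 ± 0.36, and Edem2, of a mannosidase family, at 0.63 ± 0.26. Of 33 other translocon, signal peptidase and oligosaccharyltransferase genes, 7 were higher (21.2%) and 0 lower (median 0.41). Ckap4, an ER sheet protein, averaged 243 ± 24.8 FPKM in FP and 101 ± 29.4 FPKM in RR (SD, n = 3 each; limma adjusted p = 0.124), and Ddost, an oligosaccharyltransferase subunit, 45.7 ± 6.44 and 24 ± 5.01 FPKM.

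Among 27 targets of PERK and ATF4, 5 were higher and 1 lower at unadjusted limma p under 0.05 (22.2% in either direction, against 10.3% of all tested genes, median 0.29). Cebpb, a partner of ATF4 and CHOP, measured 1.75, 1.39 and 1.53 FPKM in FP, against 3.73, 6.49 and 6.46 FPKM in RR, a log2 change of -1.33 ± 0.30 (limma adjusted p = 0.107). Aldh1l2, of mitochondrial folate metabolism, measured 12.4, 8.17 and 8.57 FPKM in FP, against 5.42, 3.75 and 3.84 FPKM in RR (95% interval of the log2 change 0.37 to 1.63, limma adjusted p = 0.206). The groups of both genes were separate, in opposite directions. Of 19 other regulators of the unfolded protein response, 2 were higher and 1 lower (15.8% in either direction, median 0.12). Bax, a mediator of apoptosis, measured 23.8, 43.9 and 28.1 FPKM in FP, against 5.78, 8 and 20.3 FPKM in RR, and Bcl2l11, of another apoptosis mediator, at 1.62, 0.901 and 1.01 FPKM in FP, against 2.99, 3.15 and 2.66 FPKM in RR (limma adjusted p = 0.222 and 0.354).

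Of 37 other COPII and ER-Golgi genes, 2 were higher (5.41%) and 0 lower at unadjusted limma p under 0.05 (median 0.17). That share is near the 5.77% of all tested genes that were higher. The 2 were Preb, the exchange factor of SAR1, at a log2 change of 0.74 ± 0.27, and Lman2, a lectin, at 0.67 ± 0.28. Of 24 COPI and other p24 genes, 4 were higher and 1 lower (20.8% in either direction, against 10.3% of all tested genes, median 0.42). Cope, a COPI subunit, averaged 76.7 ± 14 FPKM in FP and 38.7 ± 8.08 FPKM in RR (SD, n = 3 each; limma adjusted p = 0.228), and Tmed6 measured 0.349, 1.39 and 0 FPKM in FP, against 3.18, 5.65 and 1.9 FPKM in RR. Of 15 cytosolic heat shock genes, 0 passed even unadjusted (median 0.17), with Hspb1 at 0.58 ± 0.37 and Dnajb1 at 0.40 ± 0.33.

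Markers of other cell types held 0 called genes in the osteoblast, fibroblast, macrophage, endothelial, red blood cell, skeletal muscle and neural lists. Skeletal muscle markers were higher in FP by their estimate for 14 of 15 tested genes (median 0.99), where 51.6% of all tested genes were. At unadjusted limma p under 0.05, 5 of the 15 were higher and 0 lower, where 5.77% of all tested genes were higher. Their summed levels were 483 to 624 FPKM in FP and 279 to 822 FPKM in RR. The largest part was Tnni2, the marker with a lower estimate in FP (log2 change -0.50). It measured 277 to 330 FPKM in FP and 236 to 769 FPKM in RR. Red blood cell markers were higher for 5 of 5 (median 0.73), at 183 to 259 FPKM in FP and 101 to 221 FPKM in RR. Their part in the difference of the ER genes was not tested.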

How the data were processed

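RNA of laser-microdissected mouse cartilage was sequenced from SMARTer stranded total RNA libraries, per the labels. The deposited values are FPKM, 1 column per library, per the file headers. The submitters' processing notes name Cuffdiff 2.2.1, TopHat2 2.1.1, SAMtools 0.1.18, Bowtie2 2.2.8 and build mm10. The sources used here give neither their order nor the annotation, strand setting or scaling.

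Here, log2(FPKM + 1) of 14789 genes averaging 1 FPKM or more was fitted with limma 3.58.1 (R 4.3.3; intensity trend, FP minus RR, two-sided, Benjamini-Hochberg adjusted p under 0.05). This scale understates changes of low genes. Fold values are ratios of mean FPKM. Depth was read from steps in the low FPKM values of genes with a single transcript of 1500 to 3000 bp (70.6% to 74.2% whole within 0.1 fragments, 20% by chance), and fragments per gene use the longest GENCODE M21 basic transcript. Similar transcripts were found with minimap2 2.31, at 95% identity over at least 200 bp. Members and lists were chosen with earlier results of these data known. Named genes are the 4 members with the smallest p per role group, a panel of 11, and the 2 smallest p of each pathway list.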

Additional observations from a re-analysis of the deposited data

How the results depend on the processing

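The count of members past the test was 0 under all 14 alternatives. Rescaling left 80 genes higher and 81 lower, against 82 and 61. The number of all genes called, 143, became 83 without an intensity trend, 8 without both libraries numbered 14, and 42 to 85 when 1 library was left out. The median log2 change of chaperones, 0.66, became 0.25 to 0.78 without 1 library, and that of sensors and factors, 0.55, became 0.28 after quantile normalization and ranged from 0.43 to 0.86 without 1 library. Of 377 alternative values of the 27 named members, 368 kept their direction and 9 reversed, none of them past the threshold in either fit. Those of Ddit3 were -0.10 after quantile normalization, -0.05 after rescaling, -0.06 without FP 14, -0.0063 without FP 16, -0.16 without RR 11, and -0.0038 without both libraries numbered 14. Atf6 was at -0.06 without RR 14, and Sec23a at -0.22 without FP 11 and -0.0061 without RR 14. Leaving out 1 library gave ranges of -0.16 to 0.28 for Ddit3, -0.06 to 0.43 for Atf6 and -0.22 to 0.61 for Sec23a. The cause was not tested. Depth limits the values of Sdf2l1, Sar1b and Dnajb9 most, and less so those of Sec23b, Sec61b, Manf, Creld2, Sec13 and Atf6.

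Libraries with the same number deviated together from their group means with r = 0.319, 0.185 and 0.089 across genes for 11, 14 and 16. Each library correlated best with its own number. The labels do not say what the numbers mark, and the main fit had no block for them. Its standard errors, intervals and p-values therefore leave out what same-numbered libraries share. With a block, standard errors were 0.19 for Hspa5, 0.19 for Sec23a and 0.27 for Creb3l1, against 0.44, 0.46 and 0.29 in the main fit. With the replicate block, 271 of all genes passed, against 143 without it, and 0 members in either fit. The lowest member was Creld2 at limma adjusted p = 0.0539. At unadjusted limma p under 0.05, 23 members were higher with the block, against 12 without it. The share of all tested genes at that threshold was not computed with the block. The rise is therefore not read as a result about the members.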
